A study of Mus musculus with 22 samples.

Results

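Gene expression in the neural retina was compared between AdipoR1-/- (KO) and WT mice at P30. The comparison used 8 of the 22 samples of the series, chosen by their tissue and genotype labels. These were 4 KO and 4 WT bulk RNA-Seq libraries, each made from the total RNA of retinas taken from both eyes after the cornea, iris and lens had been removed. All 8 samples were labelled C57BL/6J and were 30 days old. The KO mice carried the constitutive Adipor1 tm1Dgen allele in every cell, from a B6.129P2 stock that was backcrossed to C57BL/6J, so no Cre or transgene limited the loss to a cell type. The series also held RPE libraries and 6 single-cell libraries from both genotypes, 1 per genotype at P19, P25 and P30. The single cells served here only to find which cell types carry each transcript.

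ADIPOR1 is a membrane receptor for adiponectin with ceramidase activity. In the retina, rods make up most of the cells, and their outer segments turn light into a signal that passes through transducin and a phosphodiesterase to close cGMP-gated channels. Müller glia and astrocytes support the neurons and increase glial fibrillary acidic protein when the retina is injured, and microglia are its resident immune cells.

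The libraries held between 22734843 (KO replicate 4) and 35118164 (KO replicate 1) counts, over 53801 listed genes. At least 1 count was present for 33704 genes, and 19381 passed the filter on low counts. Levels are given as CPM (counts scaled to 1000000 per library, with TMM). They are not corrected for gene length and can be compared between libraries, not between genes. The first principal component carried 55.8% of the variance and separated the genotypes, with WT libraries between -38.4 and -30.2 and KO libraries between 30.3 and 37.3. In both genotypes, replicates 1 and 2 had Ddx3y, a Y-linked gene, at 60.5 to 69.5 CPM and Xist, the RNA of the inactive X chromosome, at 3.88 CPM or less. Replicates 3 and 4 had Xist at 2055 to 2880 CPM and Ddx3y at 0.237 CPM or less, so both genotypes held the same mix of such libraries.

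The knocked-out gene itself came out as labelled. Adipor1 (ENSMUSG00000026457, chromosome 1) was at 604.7, 600.6, 589 and 607.3 CPM in the WT libraries and at 142, 138.3, 136.3 and 137.8 CPM in the KO libraries. All KO libraries lay far below all WT libraries, with a log2 fold change of -2.11 and a standard error of 0.039 (adjusted p = 4.61e-13, edgeR). The sources used here do not name the exons that the allele removes, and the remaining KO counts cannot be assigned to a part of the gene. Adipor2, which encodes the related receptor, was not changed beyond the threshold, at 82.8 ± 5.29 CPM in WT retina against 74.1 ± 4.68 CPM in KO retina (SD, n = 4). Nnt, which carries a deletion in C57BL/6J, had 0.848 ± 0.155 CPM in WT retina and 0.826 ± 0.061 in KO retina.

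Differentially expressed genes (DEGs) were those past an adjusted p of 0.05 in edgeR's quasi-likelihood test that also differed by 1.5-fold or more. There were 1946 DEGs, 10.0% of the genes tested. Of these, 1357 (7.00% of the genes tested) were higher and 589 (3.04%) were lower in KO. Higher calls made up 69.7% of the DEGs, and 82.2% (1802 higher, 390 lower) under scaling by library totals with no TMM step, which moved the median log2 fold change of all genes from 0.004 to 0.114. The 2 directions differed in the CPM of their genes, a value that gene length also affects. Among the 2270 genes with a mean of at least 100 CPM, 108 were lower and 47 higher, whereas among the 5484 genes between 1 and 10 CPM, 240 were lower and 661 higher. The KO and WT values of 6077 genes (31.4% of the genes tested) did not overlap. A mean below 1 CPM in WT was found for 504 of the DEGs that were higher.

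To learn which cell types the changed genes belong to, each gene was placed by its level in the single cells. The 26764 cells formed 46 clusters, of which 3 were left unnamed and the others were named as like rods, cones, bipolar, amacrine, horizontal or ganglion cells, Müller glia, astrocytes, microglia, endothelial cells, pericytes or RPE from fixed markers. A gene was placed in a group when its level in that group's highest class was at least 2 times that in every other group, and was called shared otherwise. The 457 genes of the immune group rest on a single cluster of 133 microglia-like cells, 105 of them from KO libraries. Adipor1 itself is among the photoreceptor genes. The class names stand for cells that are like these types. The photoreceptor, glia, vascular and inner retina groups join classes, whereas the immune group is the microglia class alone. Gnat1, a transcript of rods, was at 4071 CPM of UMIs in rods and still at 121.8 in amacrine cells, and the part of such free RNA in the placing was not tested. Of the genes tested, 3579 were not placed, 3348 of them because their symbol is absent from the single-cell table.

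The DEGs were spread unevenly over these groups, as the plot of DEG shares shows. In the photoreceptor group, 233 of 1024 genes (22.8%) were lower and 79 (7.71%) higher. In the immune group, 214 of 457 (46.8%) were higher and 6 (1.31%) lower. In the glia group, 138 of 599 (23.0%) were higher and 12 lower. The vascular group had 147 of 885 (16.6%) higher, and the RPE group 28 of 128 (21.9%). In contrast, the inner retina group, the bipolar, amacrine, horizontal and ganglion cells together, had 44 of 2062 (2.13%) higher and 13 (0.630%) lower, below the shares over all genes tested in both directions. The photoreceptor group held 5.28% of the genes tested and 39.6% of the DEGs that were lower. The immune group held 2.36% of the genes tested and 15.8% of those that were higher. When genes were placed by the WT cells alone, 206 of 519 immune genes were higher, and with a placing ratio of 4, 175 of 271. In the placing by WT cells, the limits on cells with a UMI still counted KO cells, and the WT level of microglia came from 17 cells at P19. None of these placings of the immune group is therefore free of the KO cells.

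**Figure D1:**
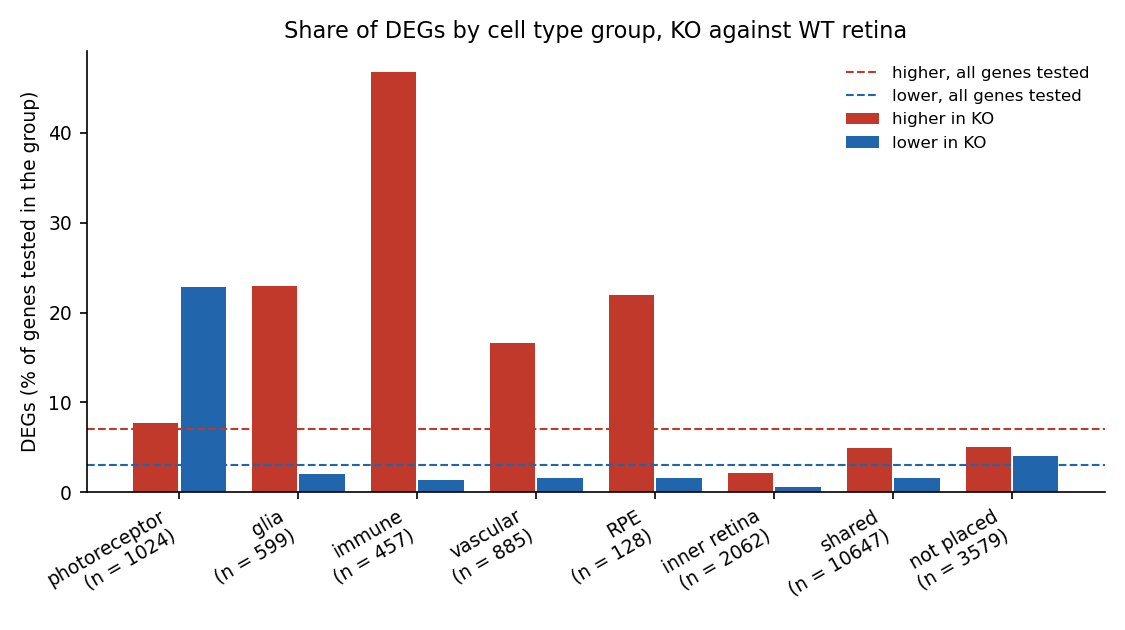
DEGs as a percentage of the genes tested in each cell type group (x axis, with the number of genes tested), higher (red) and lower (blue) in KO than in WT retina. Dashed lines give the shares over all genes tested, 7.00% higher and 3.04% lower. The photoreceptor group (22.8%) and, by less, the genes not placed (4.00%) stand above the line for lower genes. The immune, glia, RPE and vascular groups stand above the line for higher genes, and the photoreceptor group is close to it (7.71%, and 6.42% by WT cells or 9.44% by KO cells alone).

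Whole distributions moved with these counts. The median log2 fold change was -0.315 in the photoreceptor group, with the middle of the genes between -0.563 (lower quartile) and -0.020 (upper quartile). It was 0.543 in the immune group (0.344 by WT cells alone and 1.163 at a ratio of 4), 0.239 in glia, 0.315 in RPE and 0.155 in vascular cells, against 0.040 in the inner retina and -0.012 in shared genes. Genes of the photoreceptor group took 20.1%, 19.8%, 19.6% and 19.1% of all counts in the WT libraries and 15.4%, 15%, 15.1% and 14.8% in the KO libraries. The share was lower in every KO library than in every WT library. The inner retina group took 10.2% ± 0.19 of the counts in WT and 11.3% ± 0.25 in KO (SD, n = 4), and the immune group 0.749% ± 0.0069 and 0.918% ± 0.012. In bulk tissue, fewer cells of a type and less RNA per cell cannot be told apart, and this holds for every group described here.

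**Figure D2:**
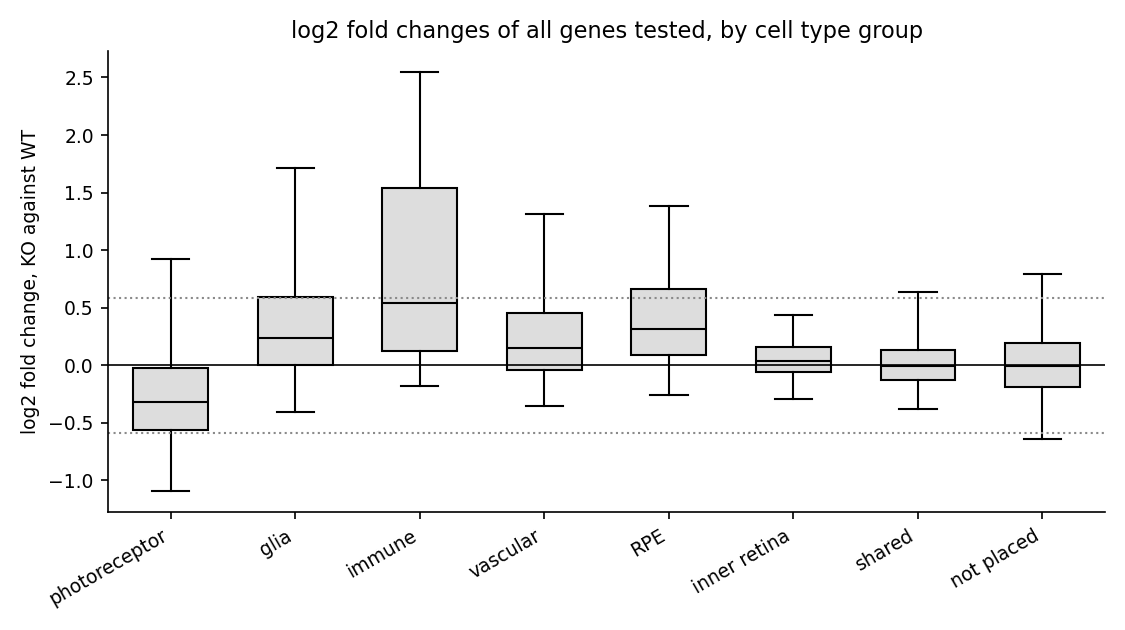
log2 fold change of KO against WT retina for all genes tested, by cell type group. Boxes span the quartiles, the line in each box is the median, whiskers reach the 5th and 95th percentiles, and dotted lines mark a fold change of 1.5 in either direction. The photoreceptor box lies below 0 and the immune box reaches highest, with an upper quartile of 1.54, while the inner retina box stays close to 0.

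Within the photoreceptors, genes placed in rods and in cones differed. Of 739 rod genes, 207 (28%) were lower and 55 (7.44%) higher, and their log2 fold changes had a median of -0.389. Of 285 cone genes, 26 (9.12%) were lower and 24 (8.42%) higher, with a median of -0.086. The cone markers summed to 1497 to 1688 CPM in WT and 1377 to 1489 CPM in KO libraries, and the gap between the ranges was narrow.

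Of the 24 genes of rod phototransduction, 17 were lower (Grk1 among them at -0.59, which was not a DEG without KO replicate 2 or 4 or WT replicate 1 or 3; 14 under scaling by library totals, where Grk1, Guca1a and Pde6a were not DEGs), none was higher, and the list's median was -0.76 on the log2 scale. Gnat1, the rod transducin α subunit, was at 12799, 13638, 12240 and 12191 CPM in the WT libraries and at 7005, 6673, 7170 and 6384 CPM in the KO libraries. All KO libraries lay below all WT libraries (log2 fold change -0.90, standard error 0.074, adjusted p = 7.76e-07). Members of each further step were also lower. These included the phosphodiesterase subunits Pde6b (-0.94), Pde6g (-0.93) and Pde6a (-0.62), the channel subunits Cnga1 (-0.76) and Cngb1 (-0.76), the exchanger Slc24a1 (-1.03), the guanylate cyclase Gucy2f (-1.09), and Rgs9bp (-1.13), which anchors the GTPase-accelerating protein that ends the response. Sag, the rod arrestin, stood apart from them. It was at 5107, 4708, 5114 and 4946 CPM in WT and at 4863, 4934, 5414 and 5010 CPM in KO, and the ranges overlapped (log2 fold change 0.02, standard error 0.067, adjusted p = 0.82).

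The 12 photoreceptor transcription factors split into 6 that were lower and 6 that were not DEGs. Nrl, which directs cells to the rod fate, was at 2078, 1959, 1974 and 1969 CPM in WT and at 949.8, 946.7, 959.2 and 922.6 CPM in KO. The libraries of each genotype lay close together and the genotypes far apart (log2 fold change -1.08, standard error 0.054, adjusted p = 6.72e-09). Its target Nr2e3 (-0.79), Esrrb (-0.89), Rorb (-0.71) and Mef2c (-1.30) were lower too. Rorb and Mef2c were shared genes in the single cells, Rorb highest in horizontal cells, and Mef2c at 673.7 CPM of UMIs in microglia, 514.2 in pericytes, 312.2 in endothelial cells and 284.7 in rods. Rorb rested on 1 library, since it was at 340.5, 440.3, 249.9 and 249.2 CPM in WT and its log2 fold change was -0.52, under the fold of a DEG, without WT replicate 2, which left 5 lower. Crx, the homeodomain activator of photoreceptor genes, was at 1278, 1356, 1258 and 1225 CPM in WT and at 850.1, 828, 830.9 and 812.3 CPM in KO (log2 fold change -0.62, adjusted p = 1.16e-06). Under scaling by library totals its log2 fold change was -0.51, under the fold of a DEG. Otx2 (-0.02), Neurod1 (0.19), Mef2d (-0.10), Samd7 (0.12), and the cone regulators Thrb (-0.15) and Rxrg (0.10) were not DEGs.

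The promoters of the DEGs of this group were read for the letters that CRX is known to bind, because its own transcript was lower. A window of 300 bases, from 250 before to 50 after the RefSeq start of the gene, was at hand for 12402 of the genes tested, and 1 window was used per gene. The letters TAATCC, on either strand, were in 5.93% of these windows, in 84 of 715 photoreceptor genes (11.7%), and in 27 of the 155 photoreceptor DEGs that were lower (17.4%). Among the 59 photoreceptor DEGs that were higher, 9 (15.3%) held them. Of the other groups, RPE genes had the letters in 13 of 93 windows (14%). A match describes the window and is not evidence of binding. The windows of Crx (chr7:15879906-15880205, minus strand) and of Cngb1 (chr8:95306536-95306835, minus strand; build GRCm38.p6) are shown because each gene was lower and each window held 2 matches, given in capitals, which begin 94 and 21 bases before the start in Crx and 58 and 25 bases before it in Cngb1.
Crx: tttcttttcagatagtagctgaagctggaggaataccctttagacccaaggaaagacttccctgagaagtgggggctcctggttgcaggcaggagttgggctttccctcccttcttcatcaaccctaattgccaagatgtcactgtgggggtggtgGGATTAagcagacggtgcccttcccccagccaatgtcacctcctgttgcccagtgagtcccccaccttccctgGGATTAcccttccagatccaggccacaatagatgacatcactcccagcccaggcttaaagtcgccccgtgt
Cngb1: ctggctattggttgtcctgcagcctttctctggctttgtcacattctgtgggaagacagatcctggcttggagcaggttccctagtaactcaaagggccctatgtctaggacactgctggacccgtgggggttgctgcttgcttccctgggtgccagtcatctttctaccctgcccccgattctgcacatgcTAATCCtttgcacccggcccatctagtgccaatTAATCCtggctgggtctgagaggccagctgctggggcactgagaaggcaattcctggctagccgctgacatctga

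Among 23 genes of the outer segment and cilium, 5 were lower and 2 higher. Over all genes tested, 3.04% were lower and 7.00% higher, and the count of higher genes is close to that share. Those that were lower include Prph2 and Rom1, which hold the rims of the discs (log2 fold changes -0.94 and -0.89), Fscn2 (-1.14), the potassium channel subunit Kcnv2 (-0.83) and the axonemal protein Rp1 (-0.71). Arl6, a ciliary trafficking GTPase, rose by 1.06 on the log2 scale, from 117.2 ± 3.21 to 244.1 ± 15.4 CPM (adjusted p = 1.84e-09), and Impg2, of the matrix between photoreceptors, rose from 450.7 ± 21.7 to 699.0 ± 56.9 CPM (0.63). Of 12 genes of the photoreceptor synapse, Cabp4, a regulator of its calcium channel, was the DEG (log2 fold change -0.86). This count is close to the share over all genes tested, of which 10.0% were DEGs. The log2 fold changes of the other 11 synapse genes were between -0.56 and 0.31.

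Of 11 genes of cone phototransduction, none was lower and 1, Gnb3, was higher. These counts are close to the shares over all genes tested, 3.04% lower and 7.00% higher. Without the fold limit, 2 were lower and 2 higher. Gnb3, the β subunit of cone transducin, was at 380.6, 319.6, 355.7 and 337.9 CPM in WT and at 1422, 1388, 1414 and 1541 CPM in KO. Every KO library was more than 3 times as high as every WT library (log2 fold change 2.05, standard error 0.065, adjusted p = 7.96e-11). In the single cells, Gnb3 was highest in cones (3882 CPM of UMIs), then in bipolar cells (1549), rods (543.4) and RPE (466.5). Its partner Gnat2 (-0.17), the opsins Opn1sw (-0.28) and Opn1mw (-0.04), and the arrestin Arr3 (-0.32) were not DEGs.

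**Figure D3:**
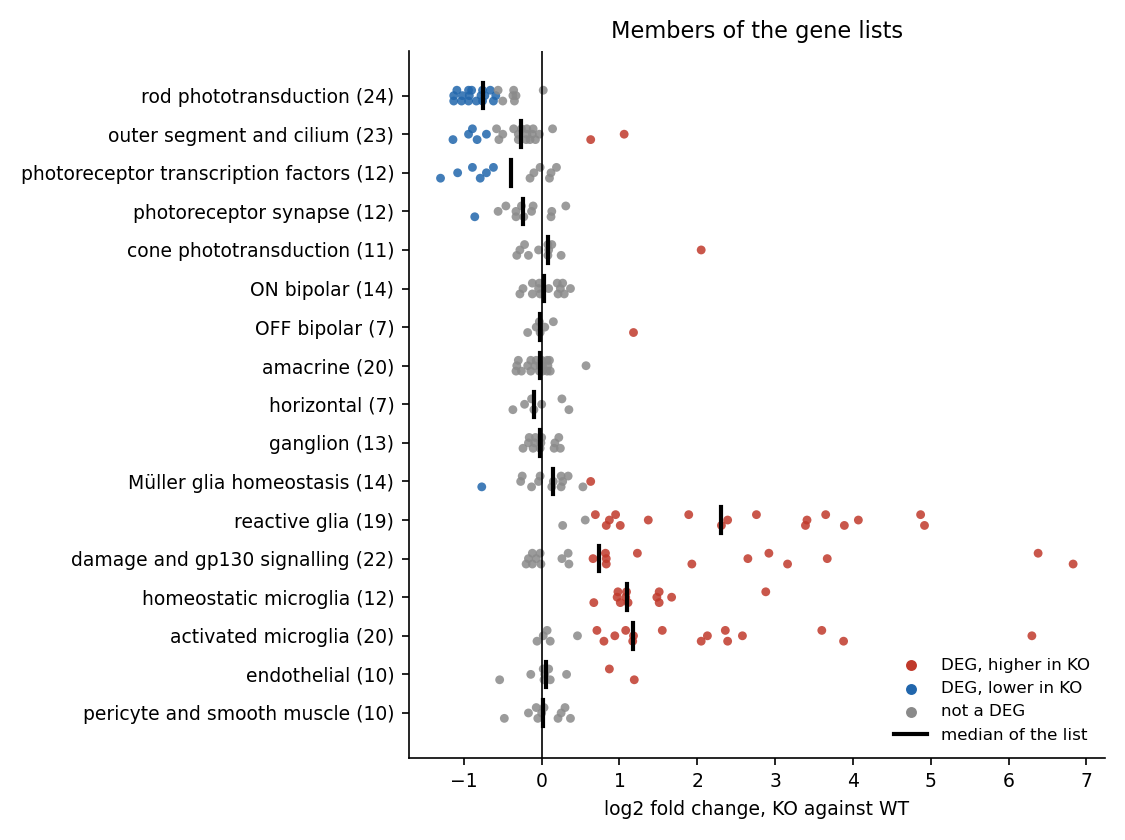
log2 fold change of KO against WT retina for every tested member of each gene list (y axis, number tested in brackets), coloured by call, with the median of the list as a black bar. Rod lists lie to the left, the lists of inner retinal neurons lie around 0, and the reactive glia and microglia lists lie to the right, with Gnb3 apart from the other cone genes at 2.05.

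Photoreceptor genes were higher in 79 of 1024 cases (7.71%), close to the 7.00% of all genes tested, and in 68 of 1060 (6.42%) when placed by the WT cells alone. Some rose from almost no counts. The placing used cells of both genotypes, so a gene near 0 in WT could be placed through the KO cells, in which it is high. Of the 79 genes, 55 were also photoreceptor genes by the WT cells alone, among them Edn2, Ccdc194 and Fgf2os, whereas Slc6a2 and Agtpbp1 were shared there. That placing took its levels from WT cells, but its limits on the number of cells with a UMI counted both genotypes. It is therefore not free of the KO cells. Ccdc194 had a UMI in 34 cells in all, and how many of them were WT cells was not counted. Edn2, which encodes endothelin-2, was at 3.78, 2.79, 2.68 and 3.03 CPM in WT and at 349.8, 341.4, 335.0 and 379.6 CPM in KO. It had the smallest p of all genes tested, with a 114.1-fold rise (log2 fold change 6.83, standard error 0.081). In the single cells, Edn2 was at 87.0 CPM of UMIs in rods, 19.8 in microglia, 18.2 in RPE, 14.5 in pericytes and 12.1 or less in the other classes. Slc6a2, the noradrenaline transporter, rose from 0.623 ± 0.079 to 29.1 ± 2.88 CPM. Ccdc194 was at 0.034, 0.0353, 0 and 0 CPM in WT and at 7.19 to 12.2 CPM in KO, so that its log2 fold change of 8.73 is imprecise (standard error 0.35). Fgf2os rose from 0.880 ± 0.127 to 91.4 ± 5.88 CPM. It overlaps Fgf2 on the other strand. The sources used here do not say if reads were counted by strand, and without strand the reads of the stretch that these genes share cannot be told apart. Chosen after its values were seen, Agtpbp1, which removes glutamates from tubulin, rose from 265.1 ± 5.48 to 866.5 ± 49.6 CPM. Falls were ranked among the photoreceptor DEGs with a mean of 1 CPM or more and no overlap of the genotypes. Those of largest size were in Glb1l3, related to β-galactosidase, at 15.7, 6.63, 12.4 and 11.8 CPM in WT and 0.824, 0.539, 0.474 and 0.336 CPM in KO (log2 fold change -4.36, standard error 0.29), and in the noncoding Gm4065 (-3.46), Gm14091 (-3.03) and Gm16055 (-3.01).

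Edn2 was examined with a list of genes of retinal damage signalling. The list joins genes of gp130, the receptor chain that leukemia inhibitory factor (LIF) and oncostatin M share, with endothelin and growth factor genes that act through other receptors. Of the 22 tested genes of this list, 12 were higher, none was lower and 10 were not DEGs, and the median on the log2 scale was 0.74. Among the ligands, Lif was at 0.680, 1.09, 0.339 and 0.388 CPM in WT and at 4.62, 3.78, 5.58 and 5.21 CPM in KO (log2 fold change 2.92, standard error 0.27, adjusted p = 2.24e-06). Fgf2, a growth factor with receptors of its own, rose from 18.9 ± 0.568 to 239.9 ± 21.6 CPM (3.67), and Clcf1 from 4.44 to 7.01 CPM. Cntf, Bdnf and Gdnf were not DEGs, and Il6 had no count in any of the 8 libraries. Among the receptors, Osmr was at 6.26, 6.98, 8.14 and 7.86 CPM in WT and at 45.5, 45.4, 48.5 and 44.0 CPM in KO, with a wide gap (log2 fold change 2.65, adjusted p = 5.12e-11). Il6st, which encodes gp130, rose by a log2 fold change of 0.82, whereas Lifr was at -0.12 and Cntfr at -0.07. Stat3, the transcription factor downstream, was at 66.0 to 76.0 CPM in WT and 250.5 to 290.9 CPM in KO (log2 fold change 1.93). Its feedback inhibitor Socs3 rose from 3.31 ± 0.522 to 29.6 ± 1.26 CPM (3.16), and Bcl3, a nuclear regulator of NF-κB, from 0.274 ± 0.044 to 23.2 ± 2.47 CPM (6.38). The kinases Jak1 (-0.02) and Jak2 (-0.01) and the endothelin receptors Ednra (0.26) and Ednrb (-0.20) were not DEGs.

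**Figure D4:**
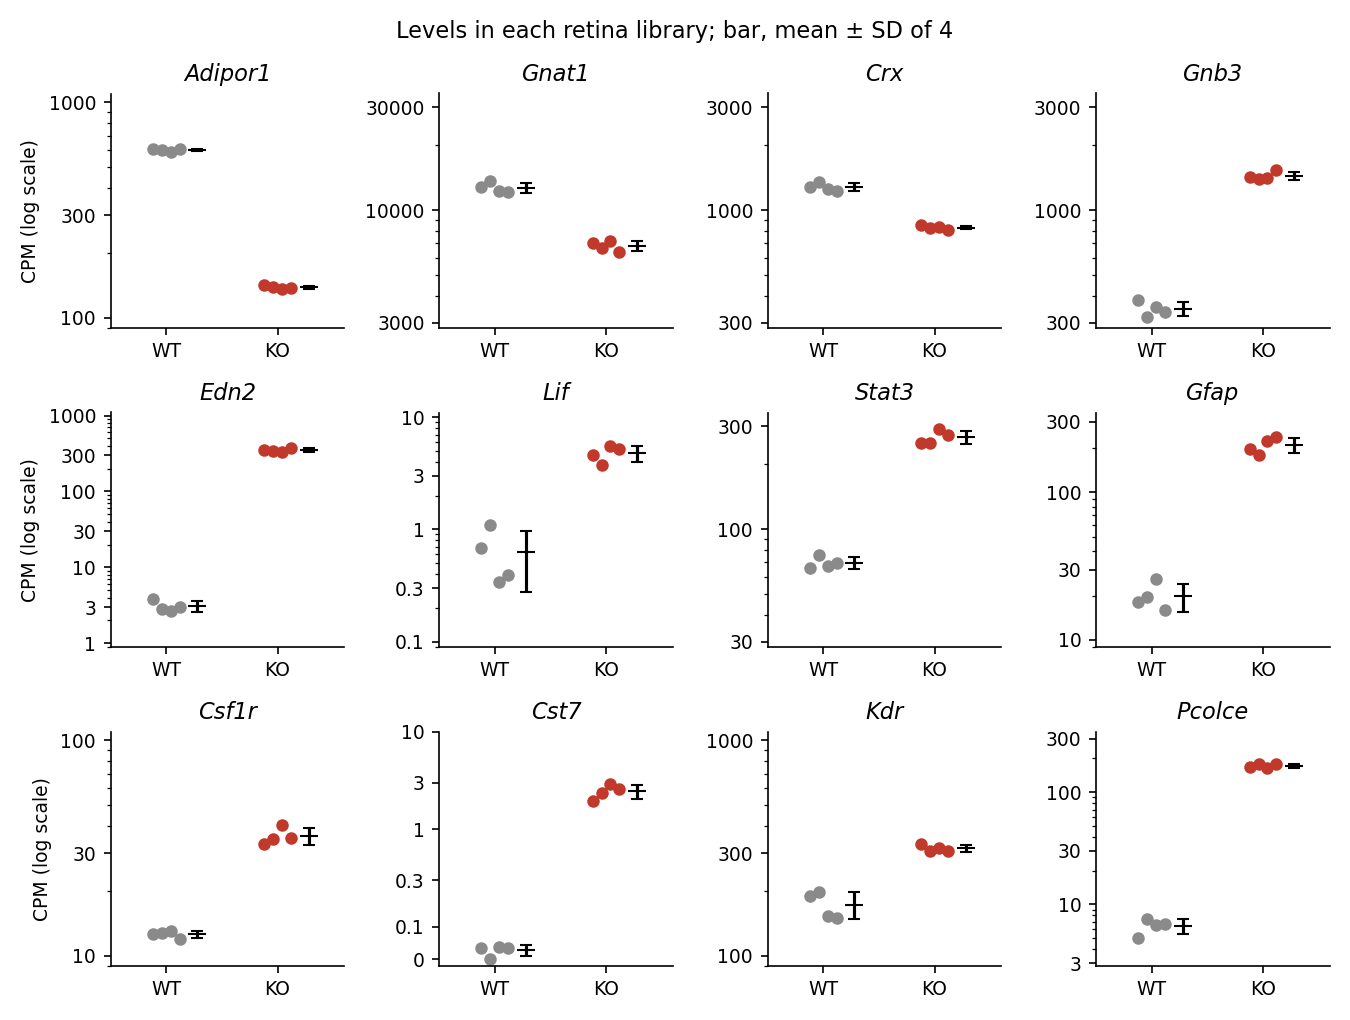
CPM of 12 genes in each WT (grey) and KO (red) retina library on log axes (for Cst7, linear below 0.1), with the mean and SD of the 4 libraries beside the points. The genotypes do not overlap for any of the 12 genes, against 31.4% of all genes tested, and some of the 12 were named by a rule that asks for no overlap. Edn2 and Pcolce sit more than 20 times as high in KO as in WT, and Lif lies between 0.339 and 1.09 CPM in the WT libraries.

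In the glia group, 89 of 378 Müller genes (23.5%) and 49 of 221 astrocyte genes (22.2%) were higher. Of the 19 genes of reactive glia, 17 were higher, and Tnc (0.27) and Ccn2 (0.56) were not DEGs. Ccn2 was higher without KO replicate 3 (0.60) or 4 (0.60) or WT replicate 3 (0.62) or 4 (0.63). It was also higher under scaling by library totals (0.67). Of the 17, 9 were placed in glia, 6 were shared, among them A2m and Mt1, highest in RPE, and Mt2, and Steap4 and Nes were placed in pericytes. Gfap, the intermediate filament of reactive glia, was at 18, 19.4, 25.7 and 15.9 CPM in WT and at 197.9, 179.9, 222.4 and 236.6 CPM in KO. The genotypes lay far apart (log2 fold change 3.41, standard error 0.12, adjusted p = 3.4e-10). Serpina3n, a protease inhibitor, rose from 4.17 ± 0.870 to 125.9 ± 4.29 CPM (4.92). C4b, of complement, rose from 6.42 ± 1.5 to 187.8 ± 17.8 CPM (4.87), A2m by a log2 fold change of 4.07, Cebpd by 3.89 and Timp1 by 3.65. The metallothioneins Mt2 (2.76) and Mt1 (1.89) and the hyaluronan receptor Cd44 (2.31) rose as well.

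The homeostatic genes of Müller glia had a median log2 fold change of 0.14, against 2.31 for the genes of reactive glia. Of 14 tested, Sox9 was higher (log2 fold change 0.63, and 0.53 without KO replicate 4) and Slc16a1, a lactate transporter, was lower (-0.77), and the other 12 were not DEGs. Over all genes tested, 10.0% were DEGs. Without the fold limit, 6 of the 14 were higher and 4 lower, against 16.2% and 14.7% of all genes tested. Glul, glutamine synthetase, was at -0.25, Rlbp1, a retinoid carrier, at -0.04, the water channel Aqp4 at 0.53 and the potassium channel Kcnj10 at 0.13. Slc16a1 is not specific to these cells, since it was at 1347 CPM of UMIs in endothelial cells and 199.6 in Müller glia. It was at 235.5, 255.8, 246.4 and 262.4 CPM in WT and at 154.5, 156.9, 144.0 and 131.1 CPM in KO, with no overlap. In contrast to most glial DEGs, Prss56, a serine protease placed in Müller glia, was lower, at 3.54, 4.94, 2.68 and 4.62 CPM in WT and 0.769, 1.05, 0.575 and 1.26 CPM in KO (log2 fold change -2.12, standard error 0.24, adjusted p = 1.78e-05).

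The immune group had the highest share of DEGs. All 12 homeostatic microglia genes were higher (11 without KO replicate 1 or 3 or WT replicate 2 or 3, where Gpr34 was not a DEG), with log2 fold changes between 0.67 (Gpr34) and 2.88 (Fcrls) and a median of 1.1. Csf1r, the receptor that microglia need to survive, was at 12.6, 12.7, 13 and 12 CPM in WT and at 33.1, 34.8, 40.5 and 35.1 CPM in KO (log2 fold change 1.51, standard error 0.071, adjusted p = 3.61e-09). Tmem119 was at 1.59 to 2.68 CPM in WT and 4.91 to 6.19 CPM in KO (1.48). Of the 20 tested genes of activated microglia, 15 were higher and none lower, and the rises were spread more widely. Cst7, a cysteine protease inhibitor, was at 0.034, 0, 0.0377 and 0.0352 CPM in WT and at 1.95, 2.34, 2.88 and 2.57 CPM in KO (log2 fold change 6.30, standard error 0.35). Itgax (3.88), Clec7a (3.60), Trem2 (2.58) and Tyrobp (2.36) followed. Igf1 (-0.06), Lpl (0.02), Spp1 (0.07), Ctsb (0.11) and Ctsd (0.46) were not DEGs. Apoe rose from 459.6 ± 46.0 to 973.7 ± 68.7 CPM, but was at 24693 CPM of UMIs in Müller glia and 17759 in microglia, so its rise cannot be assigned to either.

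Macrophages and blood cells were looked for by their markers, with those of microglia beside them. The microglia markers summed to 70.6 to 74.95 CPM in WT and 243 to 283.6 CPM in KO, and all 11 were higher. The macrophage markers summed to 0.850 to 2.22 CPM in WT and 1.56 to 4.49 CPM in KO. Of 7, 3 passed the filter and none was a DEG, with the highest CPM for Mrc1. Of those below the filter, Ms4a7 was at 0.034, 0.0705, 0 and 0.141 CPM in WT and at 0.549, 0.27, 0.305 and 0.21 CPM in KO, without overlap. The values of Ccr2, Cd163 and Pf4 overlapped. Without KO replicate 3, Mrc1 was higher (log2 fold change 1.19, adjusted p = 0.0495). Of 12 lymphocyte markers, 2 passed the filter and none was a DEG, and none of 6 neutrophil markers passed the filter. These summed to 0.113 ± 0.0969 CPM in WT and 0.238 ± 0.114 CPM in KO (SD, n = 4). S100a9 had the highest CPM of these, and Ly6g, Retnlg and Elane were at 0 in every library. The hemoglobin and heme genes of red cells summed to 137.0 ± 44.6 CPM in WT and 107.6 ± 73.3 CPM in KO. None was a DEG with all libraries, and without KO replicate 2 Hba-a1 (-0.93), Hba-a2 (-0.99), Hbb-bs (-0.90) and Hbb-bt (-0.89) were lower. Among the 6 immune genes that were lower was Hcls1, an actin regulator, at 46.7, 39.5, 51.5 and 48.6 CPM in WT and 21.7, 21.8, 21.9 and 24.5 CPM in KO (log2 fold change -1.05). In the single cells it was at 125.4 CPM of UMIs in microglia but also at 23.6 in rods, which are far more numerous.

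In the vascular group, 98 of 560 endothelial genes (17.5%) and 49 of 325 pericyte genes (15.1%) were higher, although the markers of these cells were mostly not DEGs. Of 10 endothelial genes, Pecam1 (-0.14), Cdh5 (0.03), Tie1 (0.02), Cldn5 (0.11) and 3 more were not DEGs by size or test, Flt1 was at 0.32, and Kdr and Vwf were higher. Kdr, a receptor of VEGF, was at 189.0, 197.7, 153.8 and 150.2 CPM in WT and at 330.8, 306.4, 318.0 and 307.8 CPM in KO (log2 fold change 0.87). In the single cells it was at 716.8 CPM of UMIs in Müller glia and 539.3 in endothelial cells. Vwf, of endothelial storage granules, was at 5.78 to 8.43 CPM in WT and 15.3 to 19.1 CPM in KO (1.19). None of 10 genes of pericytes and smooth muscle was a DEG, close to the share over all genes tested, of which 10.0% were DEGs. Gbp2, a guanylate-binding protein that interferon induces, was at 3.23, 3.1, 2.56 and 2.18 CPM in WT and at 16.6, 16.7, 17.2 and 17.8 CPM in KO, with no overlap (log2 fold change 2.62, standard error 0.11, adjusted p = 1.04e-09). Cxcl10, a chemokine placed in microglia, was at 0.068, 0.106, 0.0377 and 0.0352 CPM in WT and at 2.12, 2.1, 3.59 and 2.82 CPM in KO (5.32, standard error 0.34). In the single cells Cxcl10 was at 267.1 CPM of UMIs in microglia, 125.4 in astrocytes and 59.3 in Müller glia, so its rise cannot be assigned to microglia alone. Ifitm1 was at 1.70, 23.8, 1.32 and 1.39 CPM in KO and at 0.493 to 1.30 CPM in WT, with KO replicate 2 far above the others. Its log2 fold change was 3.21 with all libraries and 0.94 without KO replicate 2.

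Because Gbp2 and Cxcl10 are known interferon targets, promoters were also read for the letters of the interferon-stimulated response element, GAAA, any 2 bases and GAAA again, on either strand. They were in 2.86% of the 12402 windows, in 69 of 921 DEGs that were higher (7.49%) and in 12 of 320 that were lower (3.75%). By group, 14 of 118 vascular DEGs that were higher (11.9%) held them, 14 of 159 in the immune group (8.81%), 30 of 386 in shared genes (7.77%), 4 of 45 in genes not placed (8.89%), 3 of 101 in glia (2.97%), 3 of 59 in photoreceptors (5.08%) and 1 of 34 in the inner retina (2.94%). Among all genes tested of a group, changed or not, they were in 4.04% of the vascular, 4.79% of the immune, 2.67% of the shared, 3.08% of the glia and 2.24% of the photoreceptor windows. The same shares were 3.63% in genes not placed, 2.80% in the inner retina and 5.38% in RPE. The letters TTCNNNGAA (N, any base), which STAT proteins are known to bind, were in 6.74% of all windows, in 8.03% of the DEGs that were higher and in 6.56% of those that were lower. Among the DEGs that were higher, the share was 13.6% in the vascular group, 11.1% in genes not placed, 8.55% in shared genes, 6.92% in the immune group, 6.78% in photoreceptors and 4.95% in glia, and none of 34 in the inner retina held them. Among all genes tested of a group, changed or not, the share was 7.93% in vascular, 10.1% in not placed, 6.74% in shared, 5.63% in immune, 7.55% in photoreceptor and 5.93% in glia genes. It was 5.67% in inner retina and 3.23% in RPE genes. The windows of Gbp2 (chr3:142620413-142620712, plus strand) and Cxcl10 (chr5:92348840-92349139, minus strand) are shown with the 1 match of each in capitals, beginning 59 and 213 bases before the start. In Gbp2 it lies on the strand opposite to the one shown.
Gbp2: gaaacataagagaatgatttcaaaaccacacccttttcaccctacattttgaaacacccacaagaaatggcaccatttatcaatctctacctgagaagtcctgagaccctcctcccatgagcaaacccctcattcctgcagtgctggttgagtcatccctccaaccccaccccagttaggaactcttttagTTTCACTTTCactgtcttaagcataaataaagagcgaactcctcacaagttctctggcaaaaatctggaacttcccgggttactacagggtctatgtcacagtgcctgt
Cxcl10: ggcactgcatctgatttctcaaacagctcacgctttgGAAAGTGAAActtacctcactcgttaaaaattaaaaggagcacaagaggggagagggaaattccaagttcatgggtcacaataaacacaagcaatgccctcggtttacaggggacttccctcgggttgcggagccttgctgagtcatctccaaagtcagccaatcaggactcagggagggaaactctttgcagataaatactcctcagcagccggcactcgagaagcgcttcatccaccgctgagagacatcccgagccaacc

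The neurons of the inner retina held few DEGs by gene list as well as by group. None of 14 ON bipolar, 20 amacrine, 7 horizontal or 13 ganglion cell genes was a DEG, against 10.0% of all genes tested. For lists as short as 7 or 13 genes, none is close to that share. The medians of these lists were between -0.10 and 0.03. Without the fold limit, 5 ON bipolar genes were higher and 2 lower, and 2 horizontal genes were higher and 2 lower. For amacrine genes 1 was higher and 3 lower, and for ganglion genes 1 and 0. The shares over all genes tested were then 16.2% higher and 14.7% lower. Grm6 (0.27) and Trpm1 (0.29), the glutamate receptor and the channel of ON bipolar cells, and Rgs11 (0.37), which speeds their response, were not DEGs by fold. Of 7 OFF bipolar genes, Tnnt1 rose from 20.4 ± 1.44 to 46.2 ± 4.58 CPM (log2 fold change 1.18). Among the DEGs of the group, Prph, the intermediate filament peripherin placed in ganglion cells, was at 4.29, 4.83, 5.24 and 4.40 CPM in WT and at 16.2, 16.4, 17.8 and 15.3 CPM in KO (1.81, adjusted p = 4.02e-09). Kcng4, a potassium channel subunit placed in bipolar cells, rose from 26.7 ± 1.36 to 67.1 ± 4.02 CPM. Adra2a, an adrenergic receptor placed in horizontal cells, fell from 31.4 ± 1.05 to 15.3 ± 0.924 CPM (-1.03), and Ucma, placed in amacrine cells, from 1.84 ± 0.206 to 0.610 ± 0.114 CPM (-1.57).

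The genes placed in RPE need their markers beside them, since RPE can adhere to a dissected retina. The 10 RPE markers summed to 39.97, 82.5, 113.5 and 127.1 CPM in WT and to 80.3, 87.7, 168.8 and 93.7 CPM in KO, and the ranges overlapped. The part of adhering RPE in the results for this group was not tested. Rpe65, the isomerase of the visual cycle, was not a DEG (5.86 ± 3.16 CPM in WT retina, 3.52 ± 1.86 CPM in KO retina; SD, n = 4). Of the 10 markers, Pmel was the DEG (log2 fold change 0.75), and it was not one without WT replicate 1 (0.54) or WT replicate 2 (0.68). Rpe65 was lower without KO replicate 3 (-1.16) or WT replicate 1 (-1.02), and Tyr was higher without WT replicate 4 (1.04). Of the 28 genes of the RPE group that were higher, Pcolce, an enhancer of procollagen processing, was at 5.07, 7.47, 6.56 and 6.69 CPM in WT and at 169.2, 179.1, 164.3 and 177.7 CPM in KO (log2 fold change 4.74, standard error 0.082, adjusted p = 2.64e-13). It was at 497.5 CPM of UMIs in the 83 RPE-like cells, 159.9 in pericytes and 83.8 in rods, and it was among the 10 leading genes of a rod-like cluster in which 1837 of 1861 cells came from KO libraries. Its rise therefore cannot be assigned to RPE. Trf, transferrin, rose from 4.91 ± 1.1 to 28.8 ± 1.45 CPM, and was at 7591 CPM of UMIs in RPE, 2003 in astrocytes and 1096 in Müller glia.

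Several classes of genes without a coding annotation had more lower than higher DEGs. Of 569 genes annotated as antisense, 59 (10.4%) were lower and 34 (5.98%) higher, and of 650 lincRNAs, 59 (9.08%) were lower and 51 (7.85%) higher. The counts were 53 lower (9.57%) and 21 higher (3.79%) of 554 genes annotated as TEC (to be experimentally tested), and 24 lower (7.74%) and 19 higher (6.13%) of 310 processed transcripts. Processed pseudogenes had 27 lower (1.46%) and 60 higher (3.24%) of 1849. Among 14812 protein-coding genes, 331 (2.23%) were lower and 1145 (7.73%) higher. Reads of an antisense gene and of the gene opposite it cannot be told apart without strand. A930036K24Rik, a TEC gene that was not placed, fell from 101.6 to 30.9 CPM (log2 fold change -1.72, standard error 0.064, adjusted p = 4.25e-10), and Gm14091 and Gm16055, both antisense and placed in rods, are named above.

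Genes next to Adipor1 on chromosome 1 were looked at separately, because the allele came from a 129P2 background and flanking sequence can be carried along with it. Within 5 Mb of Adipor1 in the GENCODE M21 annotation, 111 other genes were tested, of which 16 were higher and 10 lower, together 23.4% against 10.0% of all genes tested. Within 10 Mb, 150 were tested and 19.3% were DEGs. The median log2 fold change of the 111 genes was 0.019. Lad1, which encodes ladinin, was at 1.6, 2.08, 1.02 and 1.20 CPM in WT and at 50.3, 48.0, 49.8 and 51.1 CPM in KO (log2 fold change 5.07, standard error 0.13, adjusted p = 9.86e-12). Its neighbour Tnnt2, cardiac troponin T, was at 1.97, 3.35, 2.03 and 1.97 CPM in WT and at 53.1, 48.8, 38.7 and 46.6 CPM in KO (4.33). In the single cells Lad1 was highest in rods, at 16.1 CPM of UMIs. Shisa4 (-1.18), Pfkfb2 (-0.79), Chil1 (2.12) and Prelp (1.04), named after their values were seen, also lie in this stretch. For these genes, the loss of Adipor1 and the sequence that came with the allele cannot be told apart.

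**Figure D5:**
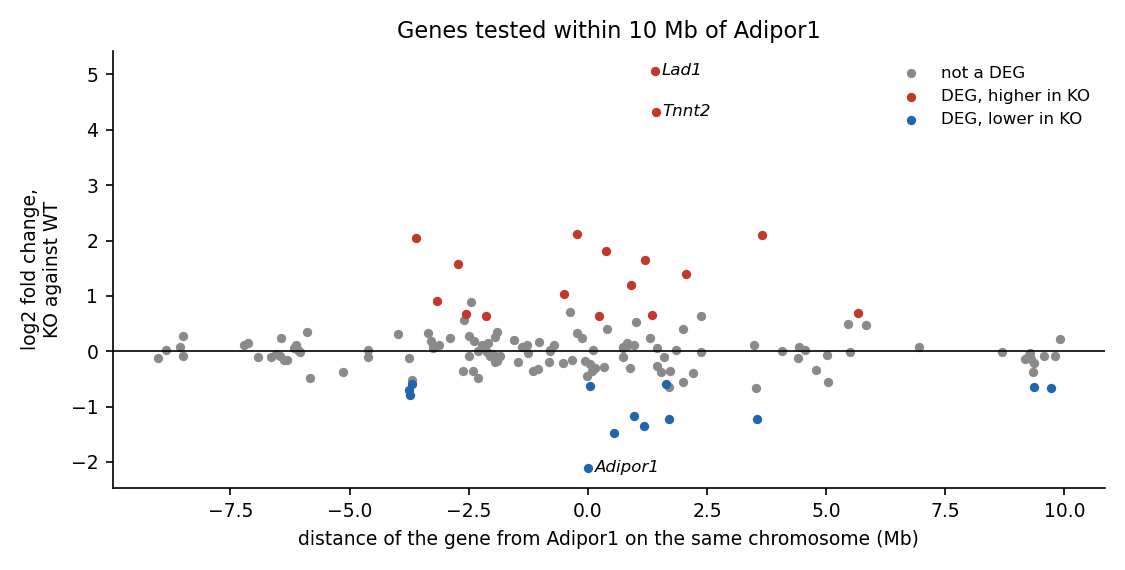
log2 fold change of KO against WT retina for the genes tested within 10 Mb of Adipor1 (y axis) against their distance from it in Mb (x axis), coloured by call. DEGs of both directions lie mostly within 5 Mb, and Lad1 and Tnnt2 stand highest, side by side at 1.40 and 1.42 Mb.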

How the data were processed

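The bulk retina table, as deposited, held unnormalized read counts for each gene and library. The libraries followed an Illumina TruSeq protocol per the labels. The submitters' processing notes name the build mm10, bcl2fastq, FastQC, HOMER, edgeR 3.20.9, Cell Ranger 2.1 and Seurat 3.2.2 without their roles; the aligner and the strand setting of the bulk counts were not given in the sources used here. The deposited single-cell values were on a natural log scale, and each cell summed to 10000 after 1 inverse step. The UMI counts recovered after 2 inverse steps were whole for 99.99998% of values (tolerance 0.01). The RPE counts and the authors' cell filters were not used here.

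Counts were tested with edgeR 4.0.16 (default filter, TMM, quasi-likelihood test, Benjamini-Hochberg adjustment) in R 4.3.3, KO against WT without a block. The p-values measure the spread between these samples. DESeq2 1.42.0 and limma 3.58.1 were alternatives. The script was tested on simulated data. Same-numbered KO and WT libraries deviated together weakly (correlations 0.157 to 0.218), each above 0.1. The sample titles number the libraries but state no pairing, so the number was used as a block only in an alternative fit. KO replicate 4 correlated best with WT replicate 3, and replicates 1 and 2 differed from 3 and 4 in Xist and Ddx3y in both genotypes, whose part in these correlations was not tested. Libraries of 1 genotype differed by more than sampling noise.

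Cells were clustered with scanpy 1.11.5 and leidenalg 0.10.2 (2000 variable genes, 30 components, 15 neighbors, resolution 1.0). Clusters were named from markers with limits set after the data were seen, so class names may differ from those of the study, and doublets were not removed. In all, 49 barcodes were shared between libraries. A class level was the mean over libraries with at least 10 of its cells. For microglia, pericytes and RPE, 1 WT library reached that number. A gene needed a UMI in at least 20 cells, of which at least 10 in the class, to be placed in a group. These limits counted cells of both genotypes, also where the levels came from 1 genotype. Symbols, biotypes and distances came from GENCODE M21 (GRCm38), and promoters from RefSeq (GRCm38.p6).

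Named genes were Adipor1 and check genes, per group and direction the 4 DEGs of largest fold change (mean 1 CPM or more, genotypes not overlapping), 4 members with the highest mean and 2 with the smallest p in each list, and the 5 genes with the highest CPM in WT. Members and lists were chosen with earlier results of these data known. Results for some genes are not reported here.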

Additional observations from a re-analysis of the deposited data

Results flagged for a closer look

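In 86 groups of 4 libraries, 6 had a library whose gap to the others was wide for the range of the group, and chance gives about 1 in 20. Ifitm1 was at 23.8 CPM in KO replicate 2 and at 1.32 to 1.70 CPM in the other KO libraries. The RPE markers summed to 169 CPM in KO replicate 3 and to 80.3 to 93.7 CPM in the others. Tnnt2 was at 3.35 CPM in WT replicate 2, and at 1.97 to 2.03 CPM in the other WT libraries. Hcls1 was at 24.5 CPM in KO replicate 4, above 21.7 to 21.9 CPM. Nrl was at 2078 CPM in WT replicate 1, above 1959 to 1974 CPM. Cst7 was at 0 CPM in WT replicate 2 and at 0.034 to 0.0377 CPM in the others, which is 1 count or none.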

How the results depend on the processing

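With the replicate block, which pairs same-numbered libraries, 1391 genes were higher and 588 lower, and 1328 and 568 of these were also DEGs without it. It moved no count of a group or list by over 1.5 times. DESeq2 called 1267 and 549 (1260 and 540 shared), limma-voom 1336 and 587, and upper quartile scaling 1357 and 586. Without the fold limit 3144 were higher and 2846 lower, and at 2-fold 770 and 184. Scaling by library totals left 390 lower and changed the counts of immune lower to 1, inner retina higher to 70, vascular lower to 6, shared lower to 101, not placed higher to 281 and lower to 94, Müller homeostasis higher to 2 and amacrine higher to 1. Keeping every gene with at least 1 count gave 421 not placed higher. Requiring a mean of 1 CPM gave 142 immune higher, 90 not placed higher and 81 lower. A placing ratio of 4 gave photoreceptor 41 higher and 138 lower, glia 89 higher, inner retina 25 higher, vascular 76 higher and 7 lower, RPE 0 lower and shared 275 lower, with fewer genes placed.

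Added after the data were seen, replicates 1 and 2 alone gave 1084 higher and 466 lower, with RPE lower 1, not placed lower 76, photoreceptor synapse lower 2, endothelial lower 1 and pericyte lower 1. Replicates 3 and 4 alone gave 1266 and 667, with inner retina lower 21 and amacrine higher 1. In edgeR's test of the difference between these sets of replicates, 0 genes passed the adjusted threshold and 1798 had an unadjusted p below 0.05 (9.28% of genes tested).

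Leaving out 1 library at a time gave 1273 to 1456 higher and 526 to 633 lower, with Müller homeostasis higher 0 to 1, amacrine higher 0 to 1 and endothelial lower 0 to 1. Without KO replicate 4 or WT replicate 1 the Müller homeostasis count was 0, without KO replicate 2 or WT replicate 3 the amacrine count was 1, and without KO replicate 3, WT replicate 3 or WT replicate 4 the endothelial count was 1. Of the tests, under all settings, of the genes named by the rule above, 2537 kept their call, 17 lost it and 11 gained it. No gene that was a DEG in the main fit or under the setting changed sign. Changes of sign in genes that were DEGs in neither were not counted. Ifitm1 lost its call under DESeq2, under limma-voom, with replicates 1 and 2 alone, and without WT replicate 1, 3 or 4. Outside that rule, other list members given in the text also lost a call in some settings, among them Grk1, Gpr34, Sox9, Pmel and Rorb. The cause of these differences was not tested, apart from the number of genes or samples entering a setting. The depth, 22734843 to 35118164 counts, limits the precision of genes with few counts.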

Other observations

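Genes that no cell type group carried alone made up 10647 of the genes tested, and 528 of them were higher (4.96%) and 166 lower (1.56%) in KO, against 7.00% and 3.04% of all genes tested. When these shared genes were sorted by the class in which each was highest, the 1990 genes highest in rods had a median log2 fold change of -0.138, with 64 lower (3.22%) and 41 higher (2.06%). The 602 genes highest in Müller glia had a median of 0.067, with 59 higher (9.80%) and 11 lower (1.83%), and the 944 highest in ganglion cells had a median of -0.003, with 11 higher (1.17%) and 7 lower (0.742%). Hdc, the enzyme that makes histamine, was at 19.4, 9.24, 17.1 and 16.1 CPM in WT and at 3.30, 3.03, 2.20 and 2.44 CPM in KO (log2 fold change -2.48, standard error 0.21). The genotypes did not overlap. Tmem150b fell by 2.91 on the log2 scale. Bik, a pro-apoptotic member of the BCL2 family, was at 0.136, 0.106, 0.0377 and 0.106 CPM in WT and at 3.02, 2.34, 1.96 and 2.57 CPM in KO (log2 fold change 4.61, standard error 0.28). Of 6 astrocyte markers, 2 were higher, and of 3 tested lens markers none was a DEG. The astrocyte markers Pdgfra (0.59) and Pax2 (1.13) were higher too without WT replicate 4, and under scaling by library totals (0.67 and 0.88).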
